A study of Saccharomyces cerevisiae and Neurospora crassa and Schizosaccharomyces pombe with 13 samples.

Results

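The circadian clock and light receptor genes of the filamentous fungus Neurospora crassa comprised 5 of the 9730 genes in the deposited gene annotation. They were taken by identifier and are frq (NCU02265), frh (NCU03363), wc-1 (NCU02356), wc-2 (NCU00902) and vvd (NCU03967), and all 5 were found. The study made 13 libraries of nucleosome footprints by MNase-seq, in which micrococcal nuclease trims the DNA between nucleosomes, from N. crassa and from a budding and a fission yeast. The 2 N. crassa libraries, WT_crassa_Rapid replicates 1 and 2, came from wild-type conidia that had germinated for 3.5 h until more than 70% showed germination, and that were fixed in 1% formaldehyde for 10 min. Footprints and read depth were not analysed here, so every value below is a length, a distance or a count in the annotation, and no library, strain or condition is compared.

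The annotation has 10785 transcripts on 7 sequences, and its coordinates are counted from 1. Lengths are taken from the longest transcript of a gene by exonic bases unless another is named. The coding length leaves out the stop codon, and the UTRs, the untranslated parts of the transcript before the start codon and after the stop codon, are counted in exonic bases. Each value is placed among all genes by the percentage of genes that have a lower value. An annotation has no replicates and the genes are a fixed list, so these positions are descriptions and no difference was tested.

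The clock of N. crassa is a feedback loop of transcription and translation. WC-1 and WC-2, transcription factors with zinc fingers, form the White Collar Complex, which activates frq. The FRQ protein binds the RNA helicase FRH and in time represses the complex that made it. WC-1 also carries a flavin and is the main blue light receptor, while VVD is a small blue light receptor, induced by light, that damps the response of the complex.

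All 5 gene spans were above the median of all genes, and most of the 5 had a long 5′ UTR. Both UTRs were above the 90th percentile of all genes in 2 of them, wc-1 and vvd. All 5 had both UTRs annotated, as did 75.7% of all genes. Of the 5, 4 had a 5′ UTR of 1000 bp or more, a length reached by 456 genes or 4.69% of the annotation, and frh was the exception. For frq this holds for the longest transcript and for another with 1010 bp, while the remaining transcript had 898 bp. For wc-1 it holds for the longest transcript alone, and the others had 5′ UTRs down to 469 bp. The gene spans ran from 3280 bp for vvd to 6454 bp for wc-1, with a median of 4341 bp against 2129 bp over all genes. Their longest transcripts had 1 intron (frq, frh and wc-1) or 2 introns (wc-2 and vvd), and the median over all genes was 1.

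**Figure D1:**
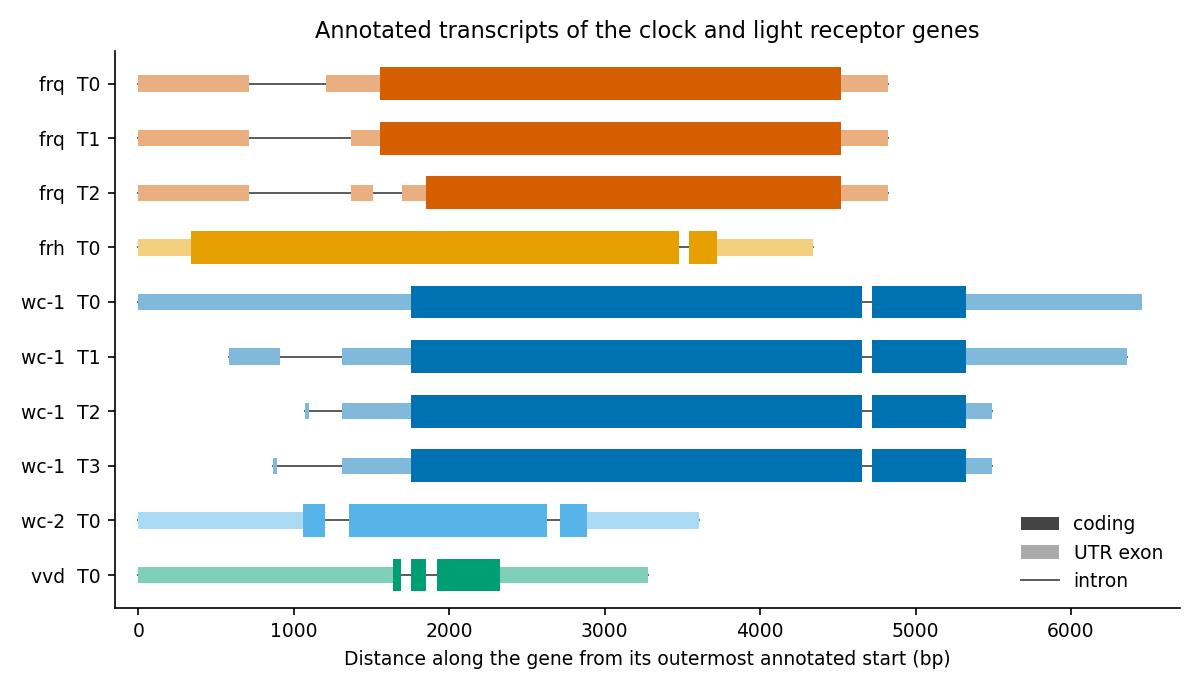
Annotated transcripts of the 5 genes drawn to scale, with the distance along the gene from its outermost start on the horizontal axis (bp); thick blocks are coding, thin pale blocks are UTR exons and lines are introns. The coding region of vvd (558 bp) is the smallest and that of wc-1 (3501 bp) the largest, and only the frq and wc-1 models have several transcripts.

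The repressor arm of the loop is encoded by frq and frh. The frq gene occupies bases 3131640 to 3136464 of sequence 7 on the plus strand, a span of 4825 bp that exceeds that of 94.3% of genes. Of the 4327 exonic bases of its longest transcript, T0, the 5′ UTR took 1055 bp, the coding region 2967 bp and the 3′ UTR 302 bp, with the stop codon between the last 2. The 5′ UTR was longer than in 96.1% of genes and the coding region longer than in 90.6%, whereas the 3′ UTR was near the middle, with 53.2% of genes lower. The stretch ahead of the frq start codon was thus long among genes and the stretch after its stop codon was not. UTRs made up 31.4% of the exonic bases of T0, with 54.1% of genes lower.

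The frq transcripts differed in how the 5′ UTR is spliced. The annotation gives frq 3 transcripts, T0, T1 and T2, that begin at the same base and end at the same base. All of them remove an intron that starts at 3132352, but T0 resumes at 3132850 and T1 and T2 resume at 3133007, 157 bp further on. The intron was 498 bp long in T0 and 655 bp in T1 and T2. For comparison, 98.3% and 99.3% of the 16983 introns in the longest transcripts of all genes were shorter than these. Among the 1154 that lie in 5′ UTRs the median was 101 bp, and 95.4% and 97.7% were shorter. The choice of acceptor left T0 with a 5′ UTR of 1055 bp and T1 with one of 898 bp, ahead of the same coding region.

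The T2 transcript of frq differed in its coding region as well. It removes a second intron of 185 bp, from 3133148 to 3133332, which begins 45 bp before the start codon used by T0 and T1 at 3133193 and takes that codon out of the transcript. The coding region of T2 begins instead at 3133490, 297 bp downstream and in the same reading frame, at codon 100 of the longer one. The coding lengths were 2967 bp in T0 and T1 and 2670 bp in T2, or 989 and 890 codons. As background, FRQ is known to occur in a long and a short form that start at different AUG codons, and temperature is known to shift their ratio through splicing at this place. The annotated transcripts hold both forms.

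**Figure D2:**
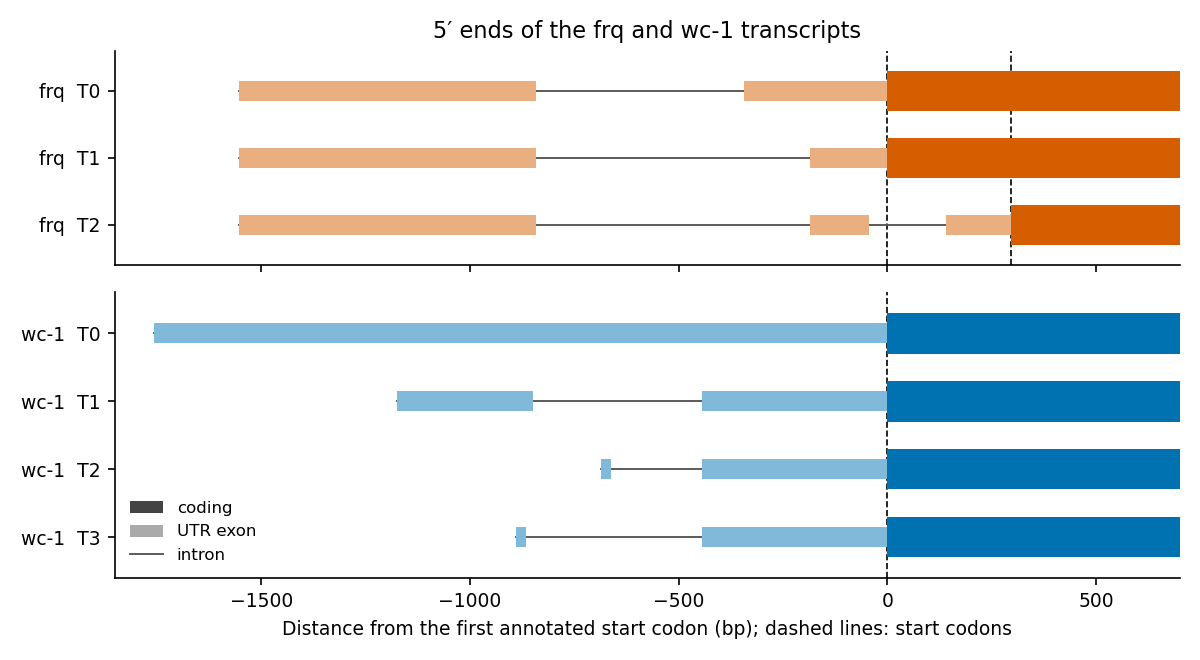
The 5′ ends of the 3 frq and 4 wc-1 transcripts, with the distance from the gene's first annotated start codon on the horizontal axis (bp); pale blocks are UTR exons, full-colour blocks are coding, lines are introns and dashed lines are start codons. The second intron of frq T2 crosses the first start codon, and its coding region begins 297 bp downstream of that codon, while the wc-1 transcripts start at 4 places and share their start codon.

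This arrangement was uncommon among genes with several transcripts. Of the 898 such genes, 239 (26.6%) had transcripts with different start codons, and in 157 (17.5%) a shorter coding region lay within a longer one, in frame and with the same end. In 97 genes (10.8%) an intron of one transcript covered the start codon of another. The last 2 properties met in 43 genes (4.79%), and 15 of these (1.67%), frq among them, also had a single transcript start. The long and short coding regions of frq thus share the annotated start, so that a footprint profile aligned on the start of either is aligned on the same base.

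The frh gene, whose product is a helicase related to Mtr4 of yeast, had the plainest model. It occupies bases 964247 to 968587 of sequence 2 on the minus strand and has 1 transcript with a coding length of 3318 bp, or 1106 codons, longer than in 93.3% of genes. The 5′ UTR was 336 bp, with 62.5% of genes lower, and the 3′ UTR was 616 bp, with 83.6% lower. Among only the genes with that UTR annotated, 52.4% and 79.5% were lower. UTRs made up 22.3% of the exonic bases of frh, with 38.5% of all genes lower. Its only intron, 68 bp, came after 3140 bp of coding sequence, or 94.6% of the coding region. The first exon of frh was therefore long, 3476 bp, and 99.2% of the first exons of the 8972 transcripts with several exons were shorter.

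The activator arm is encoded by wc-1 and wc-2. The wc-1 gene occupies bases 2767393 to 2773846 of sequence 7 on the plus strand and had the largest span of the 5, 6454 bp, with 98.4% of genes lower. In its longest transcript, T0, the coding region was 3501 bp (1167 codons, 94.3% of genes lower), the 5′ UTR 1757 bp (99.5% lower) and the 3′ UTR 1126 bp (96.5% lower). A longer 5′ UTR was annotated for 47 of the 9730 genes. Both UTRs of wc-1 exceeded the 90th percentile of all genes, which 210 genes or 2.16% of the annotation did, and vvd was the other of the 5 to do so.

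The wc-1 gene had 4 transcripts, a number that 20 genes had and 3 genes exceeded. They begin at 4 different bases. The outermost start, that of T0, is followed by that of T1 after 582 bp, that of T3 after a further 286 bp and that of T2 after a further 203 bp. Only 4 genes of the annotation had 4 or more different starts. The outermost starts of wc-1 lay 1071 bp apart, against a median of 195.5 bp over the 506 genes with several starts, and 93.5% of those genes had a smaller distance. Each of the spacings was above 150 bp, about the DNA in a nucleosome core, so a footprint profile aligned on 1 of these starts is displaced from the others by more than a core. As background, wc-1 is known to be transcribed from more than 1 promoter.

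The coding region of wc-1 was the same in all 4 transcripts, in contrast to that of frq, and the transcripts differed in the UTRs alone. The 5′ UTR was 1757 bp in T0, 772 bp in T1 and 469 bp in both T2 and T3. These lengths exceed those of 99.5%, 90.3% and 75.0% of genes in turn. The later starts go with splicing of the 5′ UTR: T1, T2 and T3 remove introns of 403, 217 and 420 bp that end at the same acceptor, and T0 keeps the whole stretch. The first exons of T2 and T3 were 24 bp each, and 1.15% of first exons in the annotation were shorter. T2 and T3 thus have 5′ UTRs of equal length that differ in where the first 24 bases come from.

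At its 3′ end wc-1 had 3 different last bases, 960 bp apart at the most. The 384 genes with several ends had a median distance of 104.5 bp, and 93.0% of them had a smaller one than wc-1. The 3′ UTR was 1126 bp in T0, 1033 bp in T1 and 166 bp in T2 and T3. In this annotation the long 5′ UTRs of wc-1 are joined to the long 3′ UTRs and the short to the short, so the untranslated share of the transcript was 45.1% in T0, 34.0% in T1 and 15.3% in T2 and T3. Among the 898 genes with several transcripts, 233 (25.9%) shared with wc-1 a single coding region behind several starts.

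The wc-2 gene encodes the partner of WC-1 and occupies bases 6815517 to 6819124 of sequence 1 on the minus strand. It had 1 transcript with a coding length of 1590 bp, or 530 codons, between the median of all genes, 1260 bp, and their upper quartile, 1932 bp, with 63.6% of genes lower. Its 5′ UTR was 1056 bp, within 1 bp of that of frq T0 at 1055 bp, and 96.1% of genes were lower. The 3′ UTR of wc-2 was 716 bp, with 88.2% of all genes lower and 85.3% of those with a 3′ UTR. Of the exonic bases of wc-2, 52.7% were untranslated. Its introns fell close to the ends of the coding region, at 9.06% and 88.9% of it, and measured 157 and 86 bp, against a median of 74 bp for the 15528 introns of coding regions.

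The vvd gene was the smallest in coding length and among the most extended in its UTRs. It occupies bases 2363438 to 2366717 of sequence 6 on the plus strand and has 1 transcript with a coding length of 558 bp, or 186 codons, with 16.5% of genes lower. Its 5′ UTR was 1635 bp, longer than in 99.4% of genes and exceeded in 61 of them, and its 3′ UTR was 951 bp, longer than in 94.1%. UTRs made up 82.2% of its exonic bases, against a median of 28.8% over all genes, and 60 genes had a larger share. The 5′ UTR of vvd was 2.93 times as long as its coding region. A 5′ UTR longer than the coding region occurred in 443 genes (4.55%), and vvd was the only one of the 5 among them. Both introns lay in the early part of the coding region, after 57 and 153 bp of it, and were 64 and 69 bp long.

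**Figure D3:**
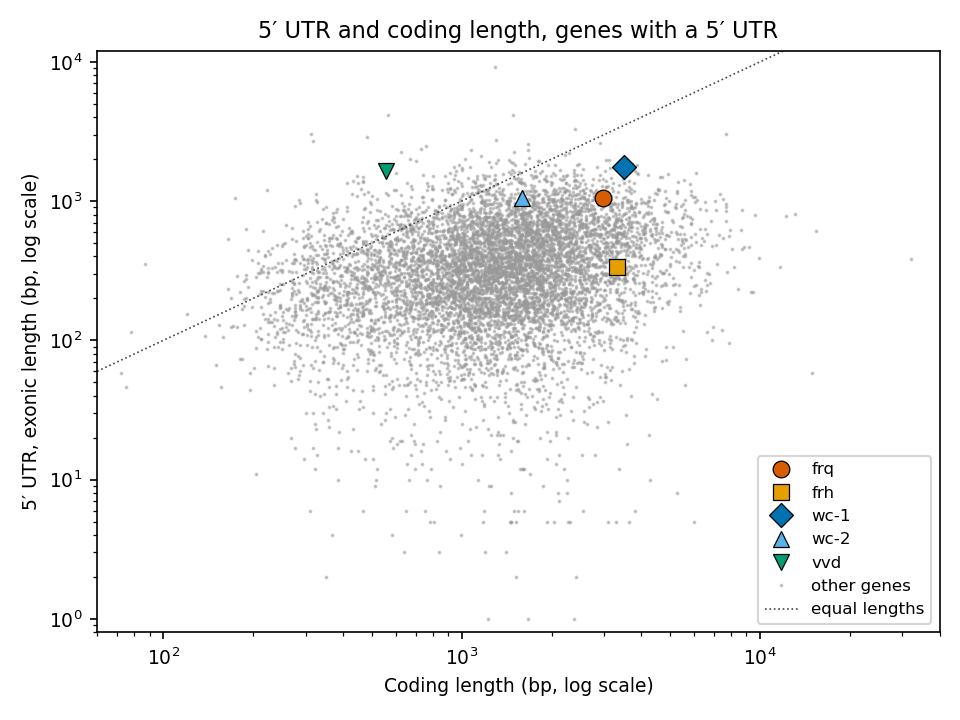
The 5′ UTR length in exonic bases (vertical, log scale, bp) against the coding length (horizontal, log scale, bp) for the genes with a 5′ UTR; grey dots are other genes, coloured symbols the 5 named genes, and the dotted line marks equal lengths. The vvd gene lies above the line at 1635 and 558 bp, frq, wc-1 and wc-2 lie below it with 5′ UTRs above 1000 bp, and frh lies lower at 336 bp.

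The long end of the distribution held more of the 5 genes for some lengths than for others. A 5′ UTR above the 90th percentile of all genes, 760.1 bp, was found in 4 of the 5 genes, against 10.0% of all genes. That percentile ranged from 709 to 810.4 bp when taken on each of the 7 sequences, and no 5′ UTR of the 5 genes lay within this range. For other measures the range over sequences did contain some of the 5: frq for the coding length (2775.3 to 2993.1 bp), wc-2 for the 3′ UTR (700.6 to 813.2 bp), and wc-1 and vvd for the upstream gap (3015.2 to 3875.3 bp). The median 5′ UTR was 1056 bp over the 5 genes and 237 bp over all genes, where genes with no annotated 5′ UTR count as 0. Against only the genes with that UTR annotated, 4 of the 5 were again above the 90th percentile. For the 3′ UTR, 2 of the 5 genes (wc-1 and vvd) were above the 90th percentile, against 9.99% of all genes, and the medians were 716 bp over the 5 genes and 280 bp over all genes. The coding region was above it in 3 genes (frq, frh and wc-1), against 9.97% of all genes, with medians of 2967 bp over the 5 genes and 1260 bp over all genes. The gene span was above it in frq, frh and wc-1 as well, against 9.99%. At the 95th percentile the 5′ UTR count was still 4, but those for the coding length, the gene span and the 3′ UTR were 0, 1 and 1. With the transcript of the smallest exonic length in place of the longest, wc-1 dropped out of the genes with a long 5′ UTR and a long 3′ UTR, which left 3 and 1 of the 5, and frq dropped out of those with a long coding region, which left 2.

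The number of transcripts divided the genes into those with 1 (frh, wc-2 and vvd) and those with several (frq and wc-1). Several transcripts, which is above the 90th percentile for this measure, were annotated for 2 of the 5 genes and 9.23% of all genes. No gene of the 5 had more than 4 introns, the 90th percentile, a limit exceeded by 5.33% of all genes. By place, frq was the only 1 of the 5 with an intron in the 5′ UTR of its longest transcript, a property of 1012 genes. These are 10.4% of the annotation, in which 7657 genes have a 5′ UTR and could hold such an intron. In wc-1 such introns occurred in T1, T2 and T3 but not in the longest transcript.

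**Figure D4:**
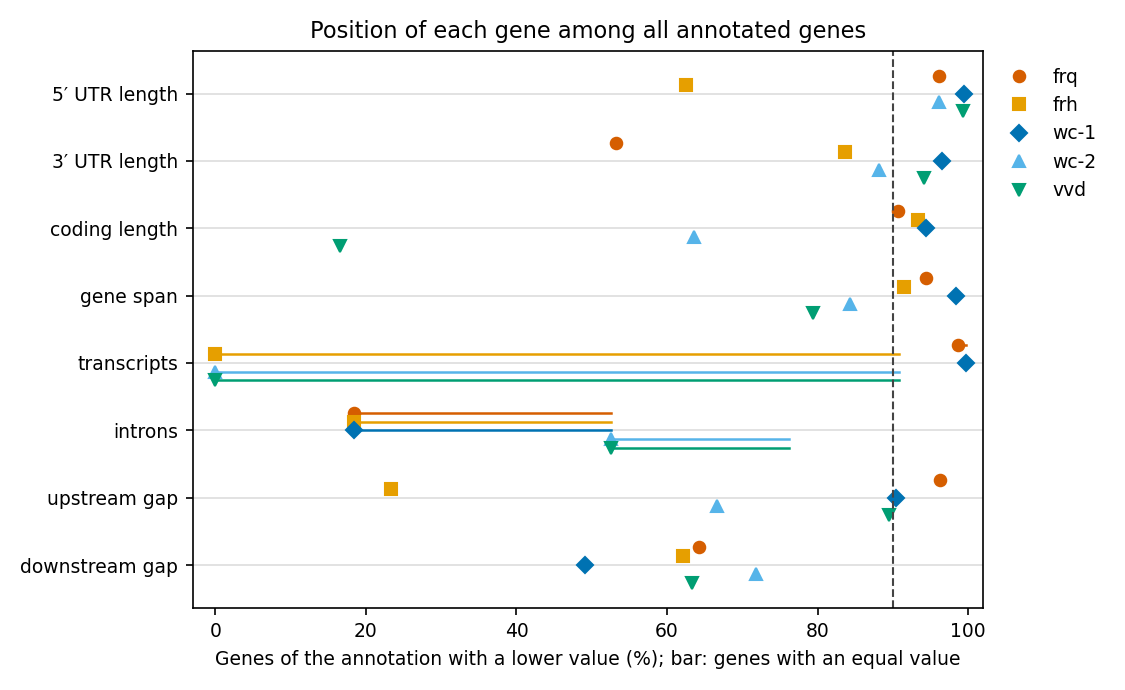
Position of frq, frh, wc-1, wc-2 and vvd among all genes for 8 measures; the horizontal axis is the percentage of genes with a lower value, the bars show the percentage with an equal value and the dashed line is the 90th percentile. For the 5′ UTR 4 symbols lie between 96.1% and 99.5% and frh lies at 62.5%, whereas for the downstream gap the 5 lie between 49.0% and 71.8%.

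The room before a gene's start holds its promoter, and in the frq promoter the White Collar Complex is known to bind separate elements for light and for the clock. The gap was measured between gene spans on either strand. The nearest gene upstream of frq, NCU02267, ends 7375 bp before the frq start, a gap larger than that of 96.2% of the 9725 genes that have an upstream neighbour. The gap was 3728 bp before wc-1 (90.5% of genes lower), 3457 bp before vvd (89.4% lower), 1343 bp before wc-2 (66.6% lower) and 297 bp before frh (23.4% lower). The order was the same between coding spans, where the upstream gaps were 9186 bp for frq, 5879 bp for wc-1, 5724 bp for vvd, 2656 bp for wc-2 and 804 bp for frh.

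Above the 90th percentile of upstream gaps, 3591.2 bp, were 2 of the 5 genes, frq and wc-1, against 10.0% of all genes. The gap of vvd lay just under that limit, and that of wc-1 just over it. A gap of 1000 bp or more, found in 4118 genes or 42.3% of the annotation, was present at 4 of the 5 genes, all but frh. Between coding spans 3 of the 5, vvd included, exceeded the 90th percentile, and with same-strand neighbours alone 0 of them did. At the 95th percentile the count was 1. A 5′ UTR and an upstream gap both above the 90th percentile were found in frq and wc-1 and in 162 genes in all (1.66%).

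The upstream neighbours of frq and wc-1, NCU02267 and NCU02357, are on the same strand as these genes. Those of frh, wc-2 and vvd are on the opposite strand, so that the starts face each other. The 297 bp between the frh start and that of NCU03362 was shorter than the median of 758 bp for genes with such a facing neighbour, 25.5% of which had a smaller gap. The facing gaps of wc-2, shared with NCU00901, and of vvd, shared with NCU03968, were above that median, with 67.0% and 89.6% lower. Among genes with a same-strand neighbour upstream the median gap was 821 bp, and 96.1% had a smaller gap than frq and 90.2% a smaller gap than wc-1. The frh start was thus the only 1 of the 5 with another gene in the 1000 bp before it.

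**Figure D5:**
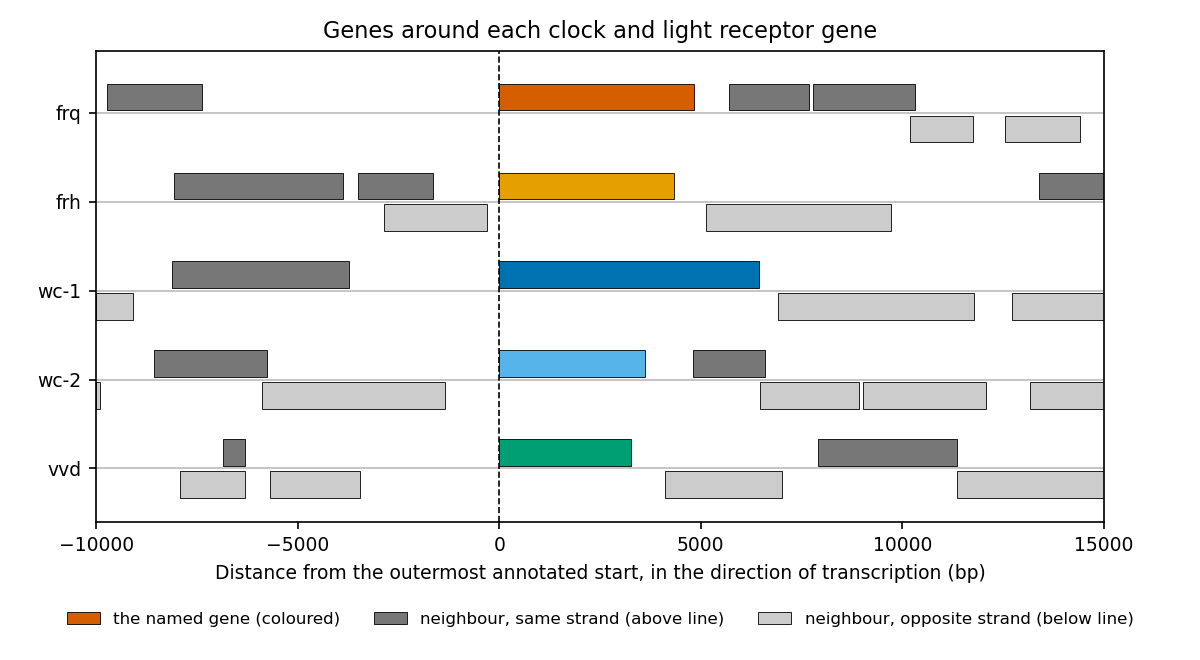
Genes around each of the 5 genes, with the distance from the outermost annotated start in the direction of transcription on the horizontal axis (bp); coloured boxes are the named genes, dark grey boxes above the line are neighbours on the same strand and pale boxes below it neighbours on the opposite strand. The empty stretch before the start is 7375 bp for frq and 297 bp for frh.

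On the downstream side the 5 genes had gaps with 49.0% to 71.8% of genes lower, and 4 of the 5 were above the median. The gaps were 868 bp after frq, 794 bp after frh, 454 bp after wc-1, 1187 bp after wc-2 and 837 bp after vvd, against a median of 477 bp over all genes, and 0 of the 5 were above the 90th percentile of 2870 bp, against 9.99% of all genes. The next gene runs toward frh, wc-1 and vvd (NCU03364, NCU02355 and NCU03966), and it continues on the same strand after frq and wc-2 (NCU02264 and NCU00903). Another gene on either strand overlapped 0 of the 5, against 22.8% of all genes (2222 of 9730). For converging neighbours, whose gaps had a median of 169 bp, 72.8% were smaller than at frh, 63.2% smaller than at wc-1 and 73.7% smaller than at vvd.

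The 5 genes are spread over 4 of the 7 sequences. The frq and wc-1 genes share sequence 7, with 357793 bp and 96 genes between them, and the others are alone on sequences 1, 2 and 6.

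The 456 genes with a 5′ UTR of 1000 bp or more in the longest transcript give a closer comparison for frq, wc-1, wc-2 and vvd. In that group the median upstream gap was 1230.5 bp, against 764 bp in the other 9274 genes, and the median coding length was 1756.5 bp against 1239 bp. The median 3′ UTR was 529 bp against 272 bp, and genes without an annotated 3′ UTR were kept in both medians. Several transcripts were annotated for 28.1% of the 456 genes, against 8.30% of the other genes. An intron in the 5′ UTR was annotated for 34.4% against 9.22%. The other genes include those without an annotated 5′ UTR, which cannot hold such an intron, and this lowers their share. A 5′ UTR is annotated for 78.7% of all genes. The share among only the other genes with a 5′ UTR was not computed. The upstream gaps of frq, wc-1 and vvd lay above the upper quartile of the group, 3139.75 bp, and that of wc-2 lay between its median and upper quartile. The coding length of vvd lay below the lower quartile of 1192.5 bp, and those of frq and wc-1 above the upper quartile of 2518.5 bp.

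For each of the 5 genes the most similar gene was sought by ranking all genes on 5 measures (both UTRs, coding length, introns and upstream gap) as percentages and adding up the rank differences. The nearest gene to frq was NCU06579, with a sum of 16.4 percentage points, a 5′ UTR of 1189 bp and an upstream gap of 5669 bp. The nearest to wc-1 was NCU04731 (8.16 points), that to wc-2 was NCU03678 (11.1 points), that to frh was NCU00978 (9.91 points) and that to vvd was NCU06910 (20.2 points). With 9725 genes ranked, the nearest gene is likely to lie outside so short a list, and it did for each of the 5. The closest pair among them was frq and wc-1, 56.1 points apart. Of all genes, 1.13% were nearer to frq than wc-1 was, and 1.24% were nearer to wc-1 than frq was. The most distant were frh and vvd, 219 points apart. Here 82.2% of genes were nearer to frh than vvd was, and 63.1% were nearer to vvd than frh was. A 5′ UTR and an upstream gap of 1000 bp or more each were found together in 262 genes (2.69%), among them frq, wc-1, wc-2 and vvd.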

How the data were processed

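The file used is the study's N. crassa gene annotation, a GTF table that is tied to none of the libraries. Its records come from NC12 gene calls, per the source column, and the title of the table says OR74A and "fixed"; the correction meant is not described in the labels. The values, which are other than a sequencing measurement, are the first and last base of 81022 records, as the authors deposited them, and 0 records carry a score. The submitters' processing notes name CASAVA and Bowtie2; reads were not analysed here. Start and stop positions were not tested against transcript data.

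Records were joined into transcripts and genes by identifier, and neighbours were the nearest genes on either side by span. Values were computed in Python 3.11.15 with NumPy 2.4.6 and SciPy 1.17.1 and drawn with matplotlib 3.10.9. All lengths and gaps were recovered for 7000 of 7000 genes of a simulated annotation, overlapping neighbours included. Each simulated gene had a single transcript. The choice among transcripts and the counts of alternative starts and splicing were therefore not checked in this way. The annotation gives no symbols; the names of the 5 genes are the usual ones for their identifiers. A list of 21 other clock and light genes was not used. The symbol table at hand was of yeast genes, so N. crassa identifiers could not match it, and 0 did. Genes named are the 5 genes, their nearest neighbours and the most similar gene to each. The members and lists were chosen with earlier results of these data known. No genome sequence of N. crassa was used, so no sequence is shown.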

Additional observations from a re-analysis of the deposited data

How the results depend on the processing

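No paired analysis was possible because no library was analysed and no test was made. For 8 measures, the number of the 5 genes above the 90th percentile was recomputed in 32 alternatives; 23 gave an equal count and 26 a count within 1.5 times. For the 6 others, the shortest transcript of each gene left 1 gene with a long 3′ UTR (2 before), because that transcript of wc-1 has the short 3′ UTR. At the 95th percentile the counts were 1 for the 3′ UTR, 0 for the coding length (3 before), 1 for the gene span (3 before) and 1 for the upstream gap (2 before), while the 5′ UTR kept its count of 4. With same-strand neighbours alone 0 upstream gaps were above the 90th percentile. The counts for introns and for the downstream gap were 0 in every alternative tried. Of 70 positions of single genes, 37 moved by more than their 95% Wilson interval, which is narrow at this number of genes. The interval served only as a yardstick for the size of a shift, because all genes were counted and none were sampled. The largest shift was that of the frq 3′ UTR, with 41.6% of genes lower among genes that have a 3′ UTR and 53.2% among all. Against genes of the same sequence the largest shift was that of the wc-2 introns, with 48.1% lower in place of 52.5%. The annotation records no sequencing depth. How UTR lengths and transcript numbers depend on the amount of evidence behind each gene model was therefore not tested.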
